A study of Mus musculus with 30 samples.

Results

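The genes described here are 41 hypoxia-inducible genes of the mouse other than the glycolytic enzymes. The set holds the subunits of the hypoxia-inducible factors (HIF) and known HIF targets, and it stands against 30205 genes measured. The genes were chosen by name, with earlier results of these data known. Every one of the 41 was found in the files, with Ero1a under its older symbol Ero1l. Gene expression was measured by RNA sequencing in 30 libraries, 3 for each of 10 groups, from muscle cells grown on a micropatterned gelatin hydrogel, on an unpatterned gelatin hydrogel or on plastic. C2C12, an immortal mouse myoblast line used up to passage 8, was sampled on patterned gelatin, unpatterned gelatin and plastic at days 4 and 7 of differentiation, and as myoblasts at day 0. Primary myoblasts from the hindlimb muscles of 8-week-old C57/Bl6J mice were sampled on patterned gelatin at days 4 and 7 and as myoblasts at day 0. Day 0 cells of both kinds are labelled as grown on plastic and were taken before serum was withdrawn. No agent was added and no allele was altered in any group. Primary cells on unpatterned gelatin or on plastic after day 0 were not analysed here, so the substrate can be compared in C2C12 cells alone. The 3 libraries of a C2C12 group are separate cultures of 1 line, and p-values measure the spread between such cultures.

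HIF is a transcription factor made of an oxygen-regulated alpha subunit and the constitutive partner ARNT. With oxygen present, prolyl hydroxylases of the EGLN family mark the alpha subunit for destruction, whereas in low oxygen it accumulates, pairs with ARNT and binds a short core motif near its target genes. Muscle cells use this response to shift fuel use, to clear or protect mitochondria, to buffer acid and to signal to vessels. HIF alpha is controlled mostly as a protein, and RNA sequencing reads the transcripts of its targets and not the protein itself.

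Per-library levels are given as CPM, counts-per-million of a gene after scaling by the trimmed mean of M values (TMM), and levels of different genes are compared in deposited transcripts-per-million (TPM), which account for length. Calls are an adjusted p under 0.05 from edgeR's quasi-likelihood test with Benjamini-Hochberg adjustment over all genes tested. Libraries held 13.1 M to 59.4 M estimated counts with a median of 27.3 M, and the smallest was patterned library 3 at day 7, with 13.1 M. That library also had 17 CPM of the endothelial gene Pecam1, against 1.89 to 7.18 CPM in the other C2C12 libraries at day 7. The sum of 4 endothelial markers was 14.1 TPM there and between 1.84 and 6.15 TPM in those others. It came mostly from Pecam1, since the library had 0 counts of Cdh5, 0 of Emcn and 14 of Tek. The transcripts of the mitochondrial genome took 0.894% to 1.91% of the counts on patterned gelatin at day 7, against 2.14% to 4.11% on unpatterned gelatin and 2.70% to 3.99% on plastic. All 5 myoblast markers and all 6 myotube markers reached 1 TPM in every group, and 5 fibroblast markers summed to 39.2 to 188 TPM in C2C12 libraries and 1.6 to 3.79 TPM in primary ones. Primary library 3 was the lowest primary library of each day in the embryonic myosin gene Myh3, with 1280 CPM at day 7, where the other two had 8080 and 6460 CPM. Medians of all genes shift by up to 0.136 log2 units between gelatin and plastic in deposited TPM and by at most 0.03 in CPM, so groups are compared in CPM. The paper describes a brief trypsin step to enrich for myotubes at days 4 and 7 and names none for day 0. Whether that step acted alike on the substrates was not tested. In RNA from pooled cells, fewer cells of a type and less RNA per cell cannot be told apart.

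The HIF core motif is ACGTG or GCGTG, read on either strand. Of the 41 genes, 32 had at least 1 promoter window in the RefSeq table (GRCm38.p6, 300 bases from 250 before to 50 after a transcription start), and 29 of these 32 (90.6%) held a core motif, against 12628 of 27025 genes with a window (46.7%) and 7143 of 10889 genes tested in C2C12 cells (65.6%). ACGTG was found in 21 of the 32 (65.6%), against 21.8% of all genes and 28.3% of tested genes. GCGTG was found in 24 (75%), against 35.2% and 54.2%, and the palindrome CACGTG, which holds ACGTG on both strands, in 6 (18.8%), against 8.09% and 11.3%. These windows were also rich in CG dinucleotides, with a median of 25.5 in the members, 8 in all genes and 21 in tested genes. A match describes letters in a window and not a bound site.

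The sequences below belong to the 6 genes that were higher on gelatin than on plastic in every one of the 4 comparisons, and to Ankrd37, whose bases shown hold 3 matches. Each reads 5′ to 3′ toward the gene on its own strand, from GRCm38, with core motifs of either strand in capitals. For Car9 and Ero1a 30 bases about 1 site are shown, and for the others the bases before the first RefSeq start that lie in no annotated exon. The Car9 and Ero1a stretches lie within the GENCODE M21 bounds of their genes. The windows they come from share 60 and 69 bases with annotated exons of the same strand.
Car9, chr4:43506995-43507024, plus strand: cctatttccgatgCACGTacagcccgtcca
Pdk1, chr2:71872974-71873223, plus strand: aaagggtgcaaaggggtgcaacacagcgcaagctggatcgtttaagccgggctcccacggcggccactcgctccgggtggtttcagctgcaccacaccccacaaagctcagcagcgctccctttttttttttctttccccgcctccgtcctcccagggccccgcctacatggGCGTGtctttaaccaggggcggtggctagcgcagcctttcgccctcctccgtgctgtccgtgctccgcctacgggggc
Ak4, chr4:101419039-101419276, plus strand: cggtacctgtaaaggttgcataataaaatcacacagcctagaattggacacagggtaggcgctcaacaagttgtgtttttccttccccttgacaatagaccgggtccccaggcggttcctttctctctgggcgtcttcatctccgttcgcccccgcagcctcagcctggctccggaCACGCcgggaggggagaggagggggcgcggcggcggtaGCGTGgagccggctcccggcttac
Bnip3, chr7:138909520-138909756, minus strand: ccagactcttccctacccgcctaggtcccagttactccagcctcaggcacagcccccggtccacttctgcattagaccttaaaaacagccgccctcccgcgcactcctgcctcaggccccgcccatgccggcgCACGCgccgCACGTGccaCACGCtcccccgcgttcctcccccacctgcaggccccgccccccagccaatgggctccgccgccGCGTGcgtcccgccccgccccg
Ero1a, chr14:45318644-45318673, minus strand: ccgcccgaggctcGCGTGgacagaggcgcg
Ankrd37, chr8:45999868-46000100, minus strand: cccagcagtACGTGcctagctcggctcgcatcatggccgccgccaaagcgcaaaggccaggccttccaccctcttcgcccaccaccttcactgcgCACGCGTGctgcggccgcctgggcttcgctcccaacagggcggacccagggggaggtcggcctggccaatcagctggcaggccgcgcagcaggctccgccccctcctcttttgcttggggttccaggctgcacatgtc
Apln, chrX:48034854-48035103, minus strand: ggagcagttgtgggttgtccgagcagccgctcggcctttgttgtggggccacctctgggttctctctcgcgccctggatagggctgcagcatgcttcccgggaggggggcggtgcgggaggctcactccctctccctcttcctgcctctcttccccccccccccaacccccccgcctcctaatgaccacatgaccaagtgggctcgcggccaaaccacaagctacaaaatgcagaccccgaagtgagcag
Bnip3 carried 5 matches in these bases, 2 of them in 1 palindrome, and Ak4 carried 2. The Car9 site began 18 bases before the RefSeq start of Car9, and the Pdk1 site 78 bases before that of Pdk1. Apln held no core motif in its 300 bases, as did Car12 and Vldlr, which says only that those letters are not in these windows. Promoter windows were lacking for Bnip3l, Hmox1, Ndrg1, Epas1, Slc2a3, Bhlhe40, Kdm4b, Angptl4 and Plod2.

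**Figure D1:**
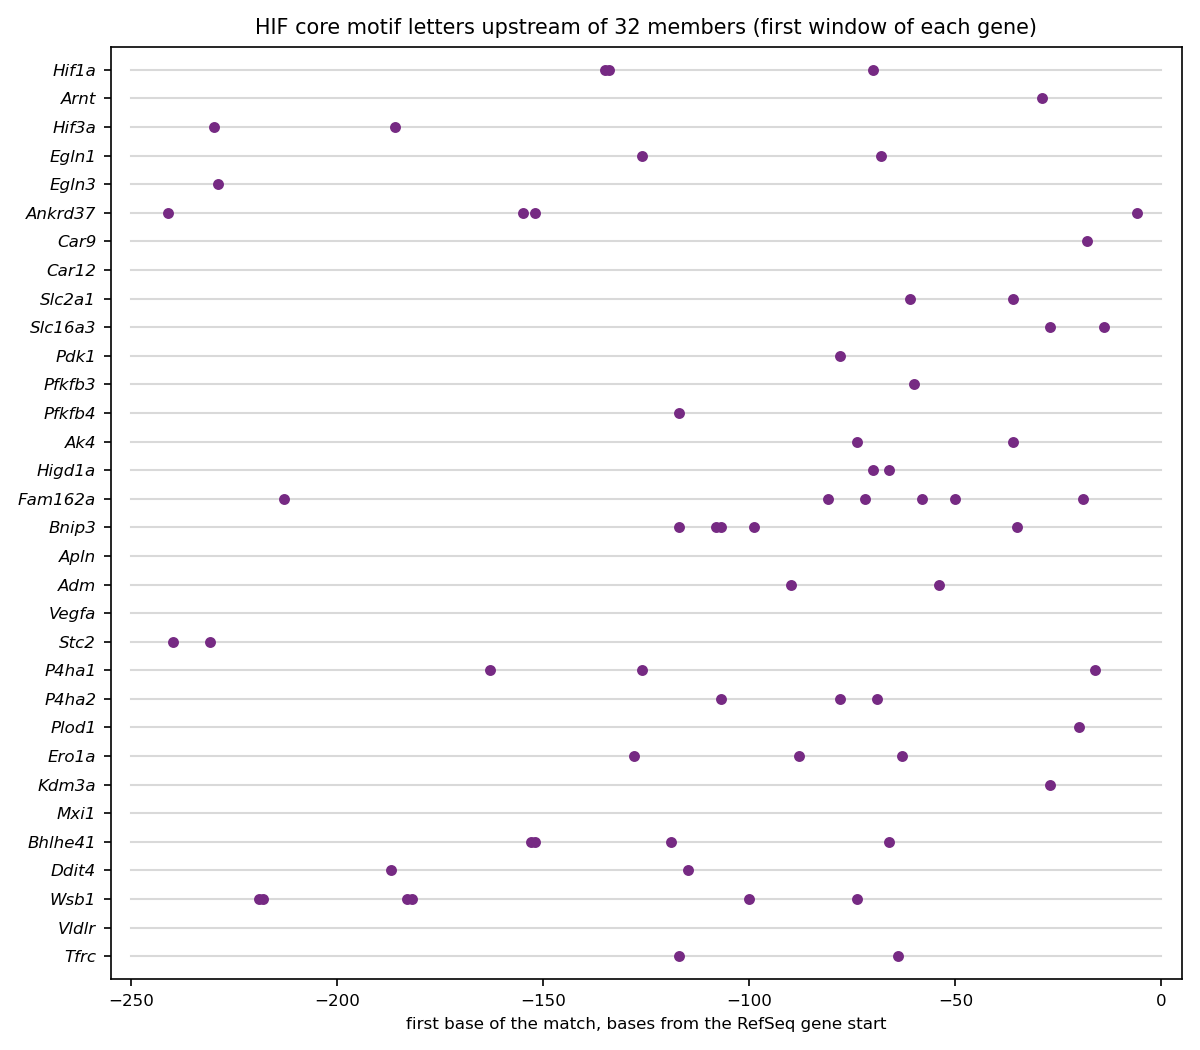
Positions of HIF core motifs (points) in the 250 bases before the first RefSeq start of the 32 genes with a promoter window, as distance from that start in bases. Of the 32 genes, 27 have at least 1 point. Apln, Car12 and Vldlr have no match in any window, and Vegfa and Mxi1 have matches only in windows not drawn here.

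Between 9 and 20 of the 41 genes were higher on gelatin than on plastic in each of the 4 comparisons, and no member was lower past the threshold. At day 4, 9 of the 41 were higher on patterned gelatin (background 2.1% of 14844 genes higher and 1.46% lower), and 15 were higher on unpatterned gelatin (background 4.02% higher and 3.87% lower). At day 7, 20 were higher on patterned gelatin (background 12.9% higher and 10.9% lower), and 14 were higher on unpatterned gelatin (background 2.49% higher and 0.977% lower). The median log2 fold change of the members was 0.16 at day 4 and 0.35 at day 7 for patterned gelatin and 0.25 and 0.28 for unpatterned gelatin, beside medians of all genes between -0.01 and 0.01. The sign was positive for 33 members at day 4 and 32 at day 7 for patterned gelatin, and for 37 and 38 for unpatterned gelatin. The patterned and the unpatterned comparison of a day share the same 3 plastic libraries.

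Car9, Pdk1, Ak4, Bnip3, Apln and Ero1a were called in each of the 4 comparisons, and they encode an acid-handling enzyme, 3 mitochondrial proteins, a secreted peptide and an oxidase of the endoplasmic reticulum. In all, 25 members were called in at least 1 comparison and 16 in none. The shares of all genes called in at least 1 or in each of the 4 comparisons were not computed. Without regard to any model, the 3 libraries of gelatin lay above the 3 of plastic for 25 members on patterned gelatin at day 4 (17.7% of all genes), 25 on unpatterned gelatin at day 4 (19.5%), 25 on patterned gelatin at day 7 (19.7%) and 26 on unpatterned gelatin at day 7 (12.6%). They lay below for 0 and 0 members at day 4 (19.4% and 20.2% of genes) and for 1 and 1 at day 7 (11.7% and 9.11%).

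The counts of both days depended on which libraries set the spread. When only the 2 groups compared entered the fit, patterned gelatin had 17 members higher at day 4 (8.87% of genes) and 4 at day 7 (0.108% of genes). Unpatterned gelatin had 20 at day 4 (11.6%) and 6 at day 7 (0.306%), so that calls over all genes fell as well at day 7. The calls gained at day 4 were Hif1a, Car12, Slc2a1, Pfkfb3, Fam162a, Vegfa, Angptl4 and Tfrc on patterned gelatin. On unpatterned gelatin they were Egln3, Kdm3a, Ndrg1, Vldlr and Tfrc. Gelatin calls named below are from the fit of all C2C12 libraries unless stated. Car9, Ak4, Apln and Ero1a were the 4 genes called in all comparisons of that fit. Leaving out plastic library 2 at day 4 lowered the patterned count to 5 (0.578% of genes), and limma on log2(TPM + 1) lowered the patterned count of day 7 to 13 (7.06%). An offset for effective transcript length ended the call of Pdk1 on unpatterned gelatin at day 7 (adjusted p = 0.0753). It also ended those of Plod2 on unpatterned (adjusted p = 0.217) and Vldlr on patterned gelatin (adjusted p = 0.301) at day 4, and of Kdm4b (adjusted p = 0.0729) and P4ha2 (adjusted p = 0.0596) on patterned gelatin at day 7. The share of mitochondrial transcripts was lower on patterned gelatin at day 7, whereas unpatterned gelatin and plastic overlapped. The 5 fibroblast markers summed to 148 to 167 TPM on patterned gelatin, 136 to 188 on unpatterned gelatin and 83.4 to 136 on plastic at day 7. At day 4 these sums were 91.2 to 125, 124 to 131 and 111 to 148 TPM, and both gelatins overlapped plastic. The part of mitochondrial transcripts and fibroblast markers in these results was not tested. Of those 5 fibroblast markers, Thy1 and Lum were at most 0.149 TPM in the mean of each C2C12 group. Of 5 myoblast markers, patterned gelatin had 3 higher and unpatterned gelatin 1 at day 7 (12.9% and 2.49% of genes), and no myotube marker was called. On patterned gelatin and plastic, mean CPM at day 7 were 206 and 146 for Myod1, 4970 and 3600 for Des and 431 and 318 for Cdh15. Means were 36.7 and 36.4 CPM for Pax7 and 13.4 and 15.5 CPM for Myf5. Des itself had 1030 CPM in C2C12 myoblasts at day 0 and 3420 CPM on plastic at day 4. Without patterned library 3, which had 17 CPM of Pecam1, 18 members were higher on patterned gelatin at day 7 (5.42% of genes).

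**Figure D2:**
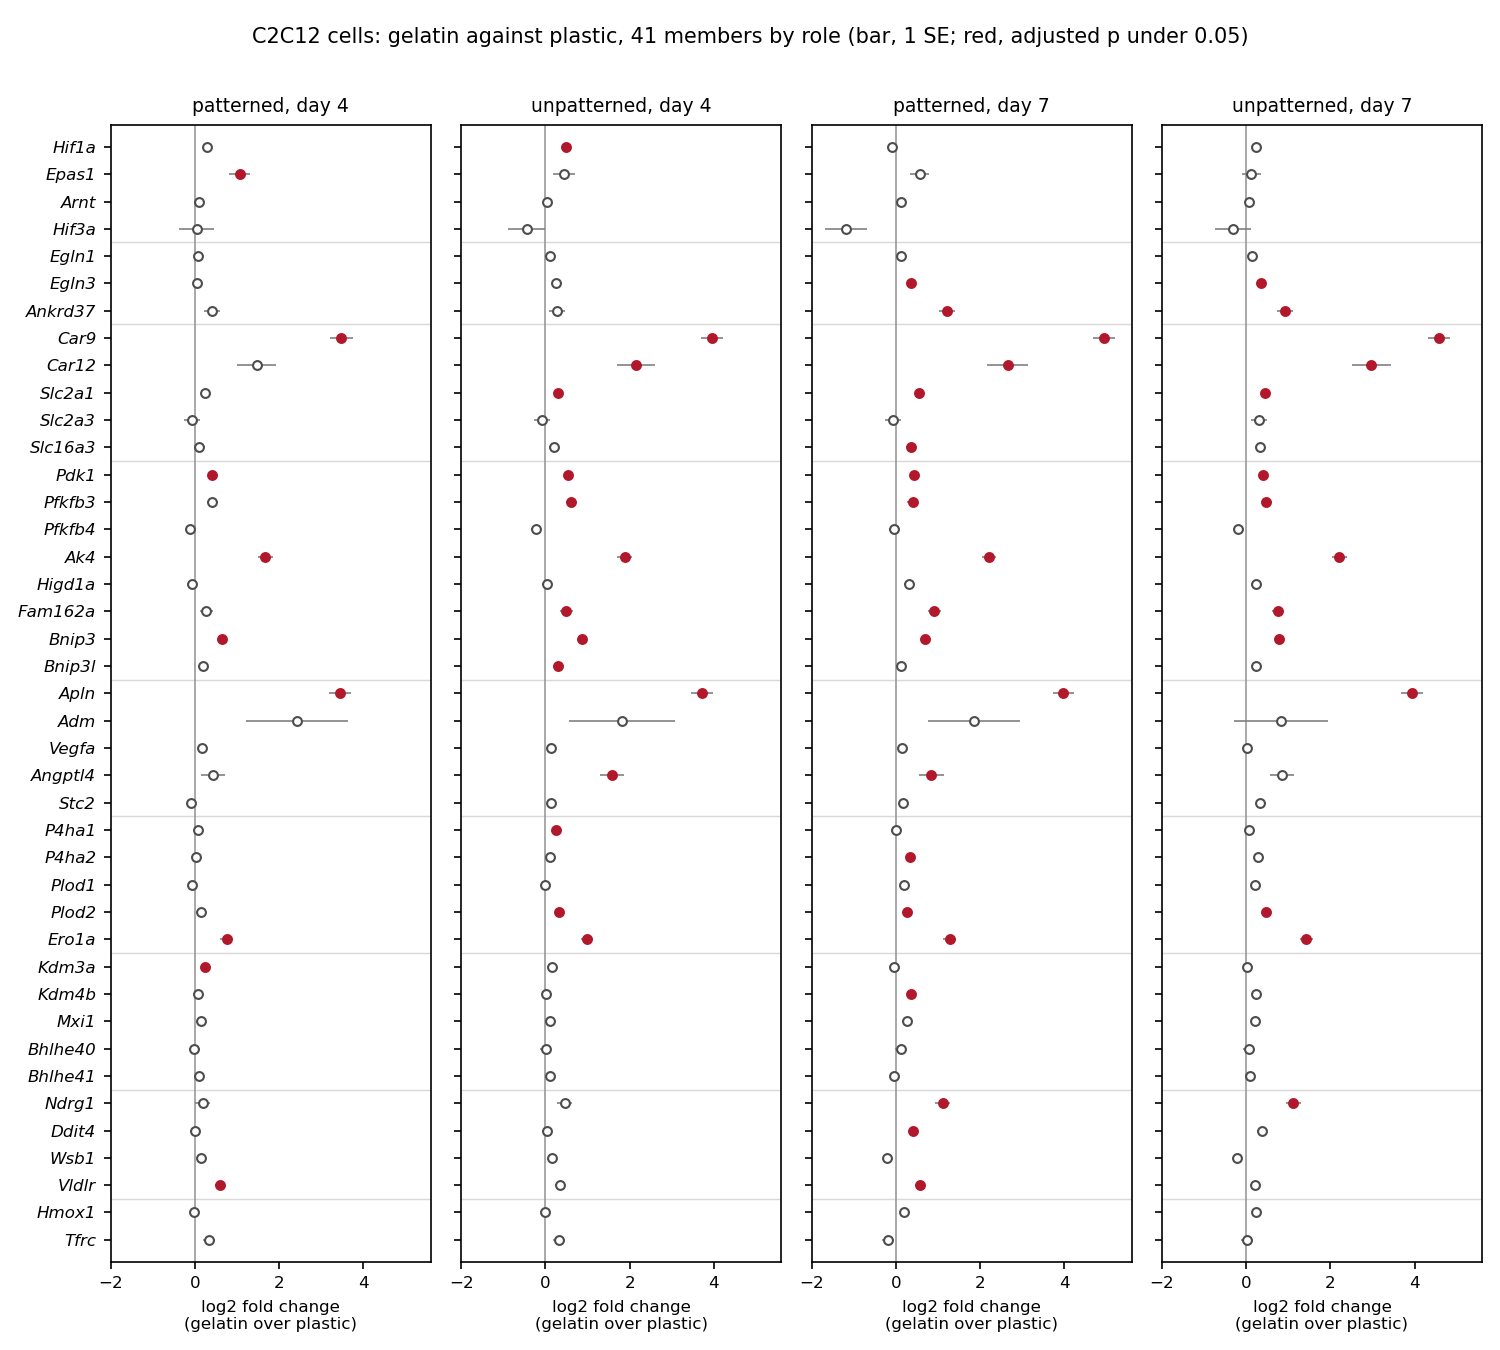
Log2 fold change of 41 hypoxia-inducible genes, gelatin over plastic, in C2C12 cells (4 panels: patterned and unpatterned gelatin at days 4 and 7; points, edgeR estimate; bars, 1 SE; 3 libraries a group; red, adjusted p under 0.05). Red points number 9, 15, 20 and 14, none lies below 0, and Car9 and Apln stand farthest to the right.

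Of the 4 HIF subunits, 1 was called on patterned and another on unpatterned gelatin at day 4 (background 2.1% and 4.02% of genes higher). None was called at day 7 (background 12.9% and 2.49%). Hif1a, which encodes the alpha subunit found in most tissues, had 156, 153 and 153 CPM on patterned gelatin, 155, 167 and 213 CPM on unpatterned gelatin and 122, 124 and 131 CPM on plastic at day 4. At day 7 Hif1a stood at 135, 104 and 112 CPM on patterned gelatin, 162, 131 and 144 CPM on unpatterned gelatin and 120, 123 and 126 CPM on plastic. Both gelatin groups thus lay above plastic at day 4, but the patterned libraries of day 7 straddled those on plastic. With all C2C12 libraries in the fit, Hif1a was called on unpatterned gelatin at day 4 alone (log2 fold change 0.50, SE 0.109, adjusted p = 0.0121). That call was lost without unpatterned library 3 (adjusted p = 0.0787) or plastic library 2 (adjusted p = 0.0536). When only the groups compared entered the fit, Hif1a was also called higher on patterned gelatin at day 4. Epas1, which encodes the alpha subunit of HIF-2 and is known best from endothelium, had 2.83, 3.59 and 2.99 CPM on patterned gelatin, 1.4, 2.27 and 2.42 CPM on unpatterned gelatin and 1.3, 1.34 and 1.77 CPM on plastic at day 4. It was higher on patterned gelatin at that day (1.06, SE 0.253, adjusted p = 0.0266), a call that held in 7 of 14 settings (the analysis as given, 7 alternatives and 6 that each leave out 1 library). Leaving out patterned library 1, 2 or 3 or plastic library 1 or 2 raised the adjusted p of Epas1 to between 0.0606 and 0.113. At day 7 Epas1 reached 8.35, 11.4 and 6.03 CPM on patterned gelatin, 5.17, 6.03 and 7.66 CPM on unpatterned gelatin and 4.15, 6.01 and 6.82 CPM on plastic, and the 3 groups overlapped.

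Arnt, the common partner subunit, had between 108 and 118 CPM on either gelatin and between 107 and 112 CPM on plastic at day 4, with log2 fold changes of 0.09 and 0.03 that missed the threshold. At day 7 it had 117 to 144 CPM on gelatin and 114 to 123 CPM on plastic. Hif3a, the third alpha subunit, some of whose splice forms inhibit the response, was near the limit of detection, at 0.151 to 0.747 CPM on gelatin and 0.39 to 0.668 CPM on plastic over both days. The 3 patterned libraries at day 7 had 0.406, 0.183 and 0.151 CPM of Hif3a, below the 3 on plastic at 0.561, 0.664 and 0.629 CPM, but the difference did not pass (log2 fold change -1.18, SE 0.495, adjusted p = 0.0873). In mean TPM over C2C12 libraries Hif1a (67.1) and Arnt (63.6) stood far above Epas1 (1.32) and Hif3a (0.154).

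**Figure D3:**
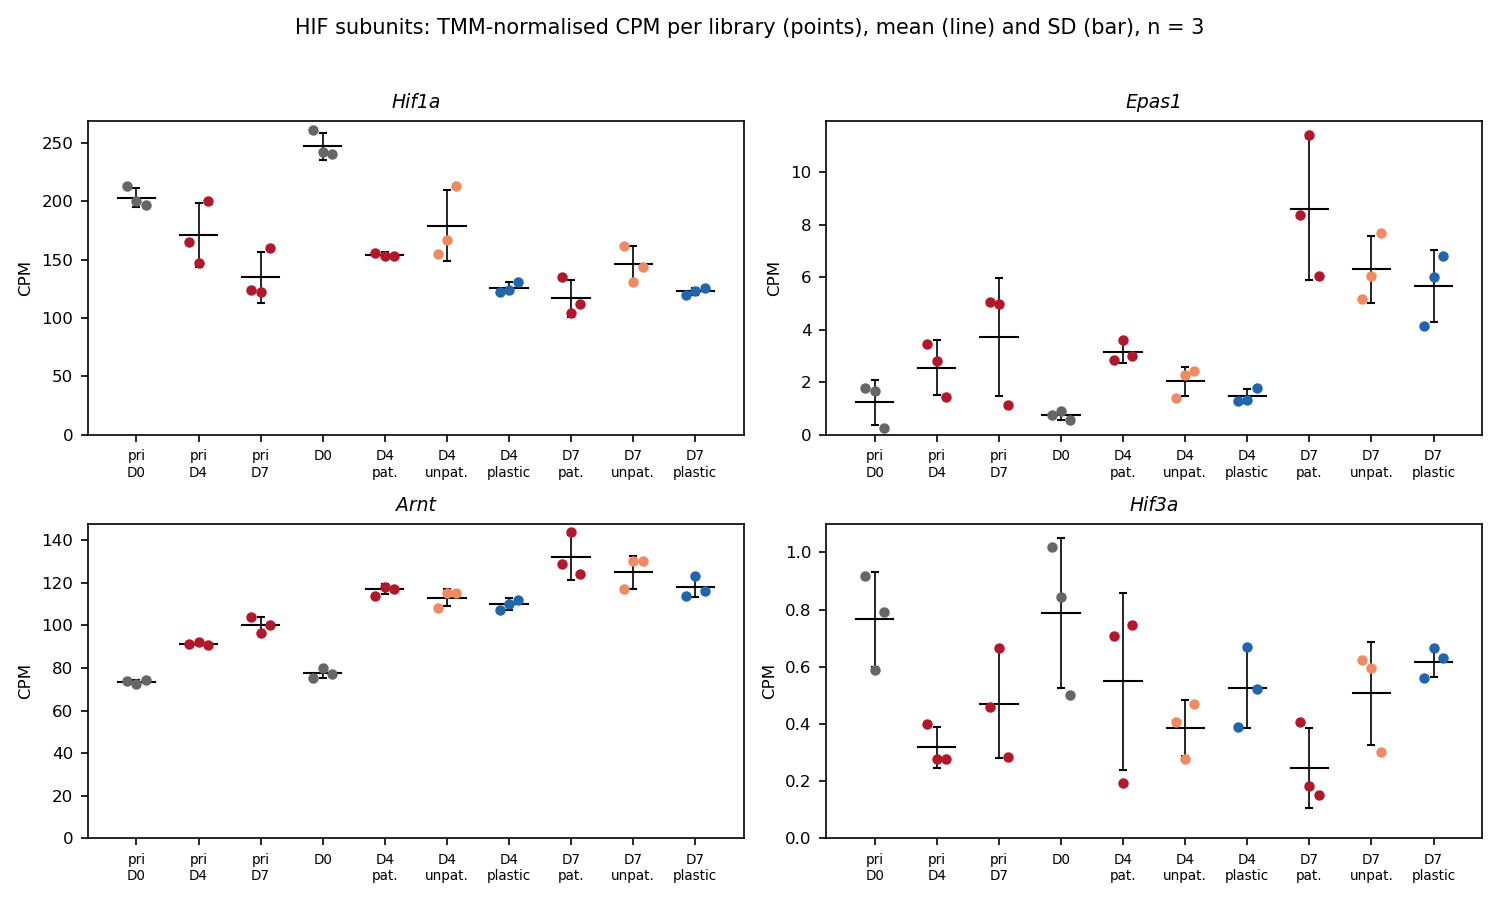
TMM-normalised CPM of the 4 HIF subunits in each of 30 libraries (points), with the mean (line) and SD (bar) of 3 libraries; groups from left are primary cells at days 0, 4 and 7 and C2C12 myoblasts at day 0, then patterned gelatin, unpatterned gelatin and plastic at days 4 and 7. Hif1a is highest in C2C12 myoblasts at day 0, at 240 to 261 CPM, and Epas1 on C2C12 myotubes at day 7, where the patterned libraries reach 11.4 CPM.

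Among the genes of oxygen sensing and feedback, the hydroxylase gene Egln3 and Ankrd37 were higher on both gelatins at day 7, and Egln1 was not called. Egln3 had 162, 190 and 138 CPM on patterned gelatin, 155, 158 and 170 CPM on unpatterned gelatin and 134, 114 and 124 CPM on plastic at day 7. Every gelatin library lay above the plastic ones, with log2 fold changes of 0.37 (SE 0.0797, adjusted p = 0.00578) and 0.36 (SE 0.0795, adjusted p = 0.0187). The unpatterned call of Egln3 was lost without plastic library 2 (adjusted p = 0.0646), plastic library 3 (adjusted p = 0.0588) or unpatterned library 3 (adjusted p = 0.0782). At day 4 it had 100 to 125 CPM on gelatin and 98.1 to 105 CPM on plastic, and neither comparison passed. Ankrd37, a small ankyrin-repeat protein that is a known HIF target, had 3.45, 3.29 and 3.85 CPM on patterned gelatin, 2.67, 2.89 and 3.08 CPM on unpatterned gelatin and 1.99, 1.44 and 1.09 CPM on plastic at day 7. Its patterned libraries were the highest, unpatterned ones came next and no groups overlapped, at 2.31-fold (adjusted p = 0.000967) and 1.90-fold (adjusted p = 0.00959) over plastic. Its exons share 22.7% of their bases with Lrp2bp on the other strand, and the strand setting of the counting is not given in the sources used here. Egln1, the main HIF hydroxylase, ranged from 66.2 to 87.6 CPM on gelatin and from 61.5 to 72.6 CPM on plastic over both days.

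Acid handling and nutrient transport held the largest difference of the set. Car9, a carbonic anhydrase of the cell surface, had 6.69, 5.67 and 7.96 CPM on patterned gelatin, 11.8, 9.09 and 7.67 CPM on unpatterned gelatin and 0.433, 0.96 and 0.503 CPM on plastic at day 4. At day 7 it had 22.8, 18.1 and 16.7 CPM on patterned gelatin, 17.2, 12.4 and 15 CPM on unpatterned gelatin and 0.561, 0.738 and 0.53 CPM on plastic. No gelatin library came near plastic, and the folds were 11.1 and 15.5 at day 4 and 30.8 and 23.9 at day 7, with adjusted p from 2.62e-09 to 3.62e-07. Its surface-bound relative Car12 had 1.06, 0.673 and 1.08 CPM on patterned gelatin, 1.76, 1.47 and 1.34 CPM on unpatterned gelatin and 0.13, 0.376 and 0.434 CPM on plastic at day 4. At day 7 Car12 had 2.53, 1.83 and 1.06 CPM on patterned gelatin, 2.74, 1.67 and 2.54 CPM on unpatterned gelatin and 0.259, 0.516 and 0.0993 CPM on plastic. Gelatin and plastic did not overlap on either day, and Car12 passed on unpatterned gelatin at day 4 (4.44-fold, adjusted p = 0.0102) and on both at day 7 (6.29-fold, adjusted p = 0.00222, and 7.85-fold, adjusted p = 0.00159). On patterned gelatin at day 4 its adjusted p was 0.0898.

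Slc2a1, the glucose transporter GLUT1, had 56.3, 65.1 and 57.8 CPM on patterned gelatin, 64.2, 57.2 and 66.7 CPM on unpatterned gelatin and 50.5, 53.6 and 48.4 CPM on plastic at day 4. At day 7 it stood at 73.1, 82.4 and 78 CPM on patterned gelatin, 67.7, 76.4 and 72.5 CPM on unpatterned gelatin and 48, 49.9 and 57.7 CPM on plastic. Gelatin libraries were the higher ones on both days, and 3 of the 4 comparisons passed, with log2 fold changes at day 7 of 0.56 for patterned (adjusted p = 0.00057) and 0.46 for unpatterned gelatin (adjusted p = 0.00378), and at day 4 of 0.30 for unpatterned gelatin (adjusted p = 0.0322). The day 4 call was lost without plastic library 1, 2 or 3 or unpatterned library 1 or 3, at adjusted p of 0.0522 to 0.12. Slc16a3, which exports lactate, had 22.2, 25.4 and 29.6 CPM on patterned gelatin and 19.6, 18 and 21.3 CPM on plastic at day 7. This was a log2 fold change of 0.36 (SE 0.122, adjusted p = 0.0414), and without patterned library 3 it was 0.20 (adjusted p = 0.247). The call was also lost without patterned library 2 or any 1 plastic library, at adjusted p of 0.06 to 0.136. Slc2a3, the glucose transporter GLUT3, had 2.42 to 4.24 CPM over the 18 C2C12 myotube libraries and was called in no comparison of substrates.

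**Figure D4:**
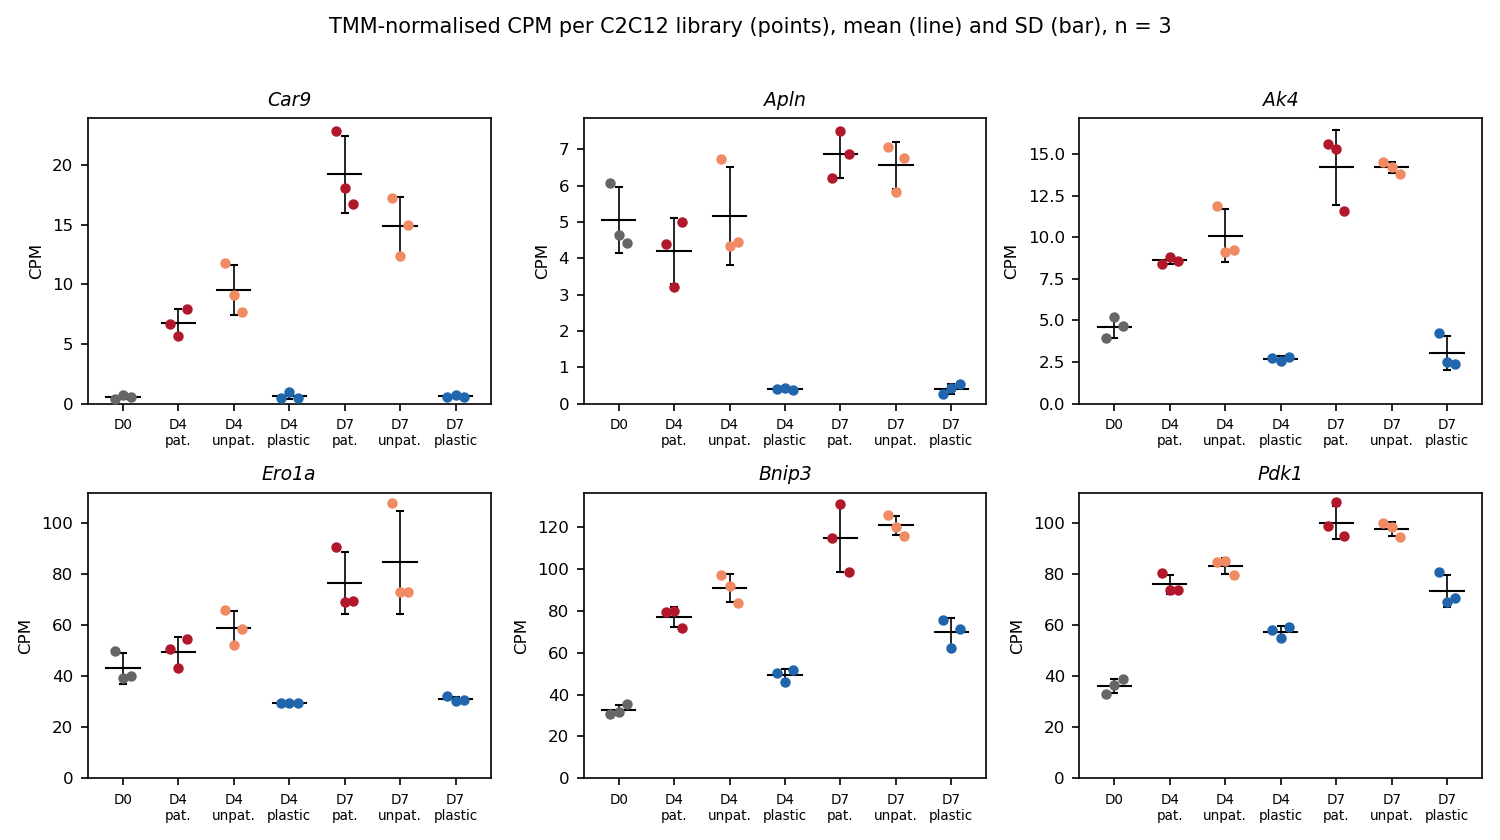
TMM-normalised CPM of Car9, Apln, Ak4, Ero1a, Bnip3 and Pdk1 in each of 21 C2C12 libraries (points), with the mean and SD of 3 libraries a group. For each gene and day the gelatin libraries lie above those on plastic, as for Car9 at day 7 with 12.4 CPM as the lowest gelatin value and 0.738 CPM as the highest on plastic.

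Fuel use and mitochondria made up the largest group, with 8 genes. Patterned gelatin had 3 of them higher at day 4 and 5 at day 7 (background 2.1% and 12.9% of genes higher). Unpatterned gelatin had 6 and 5 (background 4.02% and 2.49%). Pdk1, the kinase that keeps pyruvate out of the mitochondrion by blocking pyruvate dehydrogenase, had 80.3, 73.7 and 73.8 CPM on patterned gelatin, 84.5, 85.2 and 79.6 CPM on unpatterned gelatin and 58.2, 54.8 and 59.1 CPM on plastic at day 4. At day 7 Pdk1 had 98.6, 108 and 94.9 CPM on patterned gelatin, 99.9, 98.2 and 94.4 CPM on unpatterned gelatin and 80.6, 69.1 and 70.4 CPM on plastic. The shift was modest, from 1.31-fold to 1.44-fold, with no overlap and adjusted p between 0.000573 and 0.00538. Ak4, an adenylate kinase of the mitochondrial matrix, had 8.42, 8.82 and 8.59 CPM on patterned gelatin, 11.9, 9.09 and 9.25 CPM on unpatterned gelatin and 2.73, 2.55 and 2.81 CPM on plastic at day 4. At day 7 Ak4 had 15.6, 15.3 and 11.6 CPM on patterned gelatin, 14.5, 14.2 and 13.8 CPM on unpatterned gelatin and 4.23, 2.51 and 2.38 CPM on plastic. Gelatin libraries lay well above the highest plastic library of their day, and the folds were 3.19 and 3.69 at day 4 and 4.64 and 4.64 at day 7, with adjusted p of at most 4.75e-05.

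Bnip3, a receptor that marks mitochondria for removal by autophagy, had 79.6, 79.9 and 71.8 CPM on patterned gelatin, 97.2, 91.9 and 83.7 CPM on unpatterned gelatin and 50.1, 45.8 and 51.6 CPM on plastic at day 4. At day 7 it had 115, 131 and 98.6 CPM on patterned gelatin, 126, 120 and 116 CPM on unpatterned gelatin and 75.9, 62.1 and 71.5 CPM on plastic. Folds ranged from 1.57 to 1.84 with no overlap and adjusted p of at most 0.000792, and 22.3% of the exon bases are shared with the antisense gene Gm45507. Its relative Bnip3l, which serves the same pathway, was called on unpatterned gelatin at day 4 alone, at 131, 135 and 136 CPM, against 109, 104 and 110 CPM on plastic (1.24-fold, adjusted p = 0.0101). With an offset for effective transcript length that call was lost (adjusted p = 0.254). On patterned gelatin at day 4 Bnip3l had 131, 115 and 120 CPM, and at day 7 its adjusted p was 0.15 on patterned and 0.0527 on unpatterned gelatin.

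Fam162a, a mitochondrial protein tied to cell death in low oxygen, had 47.6, 54.1 and 64.3 CPM on patterned gelatin, 43.3, 60.7 and 44.4 CPM on unpatterned gelatin and 33.2, 27.3 and 25.9 CPM on plastic at day 7. All gelatin libraries were above plastic, at 1.88-fold (adjusted p = 0.00119) and 1.69-fold (adjusted p = 0.00714). At day 4 Fam162a had 37.2, 31.7 and 36.7 CPM on patterned gelatin, 48.1, 39.4 and 37.3 CPM on unpatterned gelatin and 28.6, 29.1 and 30 CPM on plastic. The unpatterned comparison passed at day 4 (adjusted p = 0.0432) but not when any 1 of its 6 libraries was left out (adjusted p of 0.0689 to 0.138). Pfkfb3, which makes the activator of phosphofructokinase, had 13.9, 11.5 and 13 CPM on patterned gelatin, 15, 11.2 and 14.2 CPM on unpatterned gelatin and 9.72, 10.3 and 8.71 CPM on plastic at day 7. At day 4 it had 11.4, 10.1 and 9.57 CPM on patterned gelatin, 10.5, 11.2 and 14.2 CPM on unpatterned gelatin and 7.28, 8.35 and 7.76 CPM on plastic. Gelatin was above plastic throughout, and Pfkfb3 passed on unpatterned gelatin at day 4 (1.53-fold, adjusted p = 0.0102) and on patterned (1.32-fold, adjusted p = 0.0347) and unpatterned gelatin (1.39-fold, adjusted p = 0.0454) at day 7.

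Single libraries decided these Pfkfb3 calls. The day 4 call was lost without unpatterned library 3 (adjusted p = 0.072), the patterned call of day 7 without patterned library 1 or 3 or plastic library 1 or 3 (adjusted p of 0.0848 to 0.149), and the unpatterned call of day 7 without plastic library 1, 2 or 3 or unpatterned library 1 or 3 (adjusted p of 0.0592 to 0.168). Pfkfb4, the isoform of the same enzyme, ranged from 7.55 to 10.6 CPM on gelatin and from 9.22 to 11 CPM on plastic, and Higd1a, a small protein of the inner mitochondrial membrane, from 23 to 36.2 CPM on gelatin and from 22.7 to 27.8 CPM on plastic. Neither was called in a substrate comparison, with adjusted p of at least 0.0582.

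Among the secreted signals Apln differed most between the substrates, whereas Vegfa was not called with all C2C12 libraries in the fit. Apln, which encodes the vasoactive peptide apelin, had 4.39, 3.21 and 5.01 CPM on patterned gelatin, 6.74, 4.34 and 4.44 CPM on unpatterned gelatin and 0.39, 0.417 and 0.365 CPM on plastic at day 4. At day 7 it had 6.22, 7.5 and 6.86 CPM on patterned gelatin, 7.08, 5.83 and 6.76 CPM on unpatterned gelatin and 0.259, 0.443 and 0.53 CPM on plastic. Plastic libraries lay far below gelatin on both days, and the folds were 10.8 and 13.2 at day 4 and 15.8 and 15.3 at day 7, with adjusted p from 3.59e-08 to 3.62e-07. C2C12 myoblasts at day 0 had 6.08, 4.65 and 4.41 CPM of Apln on plastic, a range that overlapped the gelatin myotubes of day 4. Angptl4, an inhibitor of lipoprotein lipase, had 7.59, 8.53 and 22.4 CPM on unpatterned gelatin and 4.77, 3.67 and 4.44 CPM on plastic at day 4. The log2 fold change of Angptl4 was 1.58 (SE 0.278, adjusted p = 0.00472), and it was 0.91 (adjusted p = 0.00401) without unpatterned library 3, the one at 22.4 CPM. On patterned gelatin at day 7 Angptl4 had 6.62, 6.16 and 6.41 CPM, against 3.58, 3.8 and 3.15 CPM on plastic (1.79-fold, adjusted p = 0.0496), and leaving out any 1 of those 6 libraries gave an adjusted p of 0.0731 to 0.146.

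Vegfa, the growth factor of blood vessels, had 118 to 136 CPM on gelatin and 116 to 118 CPM on plastic at day 4, and 117 to 141 CPM on gelatin and 111 to 131 CPM on plastic at day 7. Its log2 fold changes lay between 0.01 and 0.16, none past the threshold. When only the groups compared entered the fit, Vegfa was called higher on patterned gelatin at day 4. Stc2, a secreted stanniocalcin, had 9.58 to 15 CPM on gelatin and 8.58 to 13.4 CPM on plastic, and came nearest to a call on unpatterned gelatin at day 7 (adjusted p = 0.051). Adm, which encodes the vasodilator adrenomedullin, jumped between libraries of 1 group. It had 1.66, 2.02 and 2.5 CPM on patterned gelatin, 2.22, 2.03 and 0.0 CPM on unpatterned gelatin and 0.0, 1.38 and 0.0174 CPM on plastic at day 4. At day 7 Adm had 3.18, 2.68 and 3.24 CPM on patterned gelatin, 2.26, 2.14 and 0.1 CPM on unpatterned gelatin and 0.13, 0.0369 and 2.19 CPM on plastic, and no direction is read from these estimates.

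Genes of collagen modification and disulfide formation were led by Ero1a, the oxidase that renews protein disulfide isomerase in the endoplasmic reticulum. It had 50.7, 43.3 and 54.7 CPM on patterned gelatin, 65.9, 52.3 and 58.6 CPM on unpatterned gelatin and 29.6, 29.6 and 29.5 CPM on plastic at day 4. At day 7 Ero1a had 90.5, 69.3 and 69.5 CPM on patterned gelatin, 108, 73.1 and 73 CPM on unpatterned gelatin and 32.2, 30.2 and 30.7 CPM on plastic. The plastic libraries were nearly equal and the gelatin ones spread widely above them, at 1.68-fold (adjusted p = 0.011) and 1.98-fold (adjusted p = 0.00144) at day 4 and 2.42-fold (adjusted p = 7.92e-05) and 2.69-fold (adjusted p = 3.56e-05) at day 7. The patterned call of day 4 was lost without patterned library 1 or 3 or plastic library 2, at adjusted p of 0.0528 to 0.0545. Plod2, a lysyl hydroxylase that sets collagen crosslinks, had 114, 111 and 118 CPM on unpatterned gelatin and 87.5, 92.8 and 92.8 CPM on plastic at day 4 (1.25-fold, adjusted p = 0.00976). At day 7 Plod2 had 112, 102 and 97.4 CPM on patterned gelatin, 124, 113 and 119 CPM on unpatterned gelatin and 83.2, 88.6 and 80.4 CPM on plastic. Both groups were above plastic, at 1.21-fold (adjusted p = 0.0102) and 1.39-fold (adjusted p = 0.000823), the patterned call being lost without plastic library 3 (adjusted p = 0.0569).

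P4ha1 and P4ha2 encode the catalytic subunits of collagen prolyl hydroxylase, and each passed once. P4ha1 had 181, 171 and 170 CPM on unpatterned gelatin and 139, 149 and 150 CPM on plastic at day 4 (1.19-fold, adjusted p = 0.0225), a call lost without plastic library 1 or 2 or any 1 unpatterned library (adjusted p of 0.055 to 0.0791). P4ha2 had 60.2, 60.8 and 72.9 CPM on patterned gelatin and 48.6, 49.8 and 51.4 CPM on plastic at day 7 (1.27-fold, adjusted p = 0.0103), and without patterned library 3 its log2 fold change was 0.20 in place of 0.35 (adjusted p = 0.0588). Plod1, the lysyl hydroxylase of helical collagen, had 78.6 to 91.7 CPM on gelatin and 68.3 to 90.5 CPM on plastic over both days and was not called.

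Of 5 chromatin and transcription regulators, 2 histone demethylases passed once each, both on patterned gelatin (background 2.1% of genes higher at day 4 and 12.9% at day 7). Kdm3a had 135, 124 and 127 CPM on patterned gelatin, 117, 124 and 121 CPM on unpatterned gelatin and 104, 111 and 110 CPM on plastic at day 4. All gelatin libraries were above plastic, and the patterned comparison passed (log2 fold change 0.25, SE 0.0553, adjusted p = 0.0202) but was lost without patterned library 1 or 3 or any 1 plastic library (adjusted p of 0.0581 to 0.117). At day 7 the 3 substrates of Kdm3a overlapped, at 109 to 117, 117 to 121 and 110 to 118 CPM on patterned gelatin, unpatterned gelatin and plastic. Kdm4b had 68.7, 78 and 76.4 CPM on patterned gelatin and 55.9, 60.2 and 54.2 CPM on plastic at day 7 (1.28-fold, adjusted p = 0.00834). Mxi1, a repressor that competes with Myc, and the clock repressors Bhlhe40 and Bhlhe41 had log2 fold changes between -0.05 and 0.26 in the 4 comparisons, with adjusted p of at least 0.0829. Bhlhe40 was among the most abundant of the set, at 125 TPM in the mean over C2C12 libraries.

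Ndrg1, Ddit4 and Vldlr of the stress and growth group were higher on patterned gelatin at day 7. Ndrg1, a gene of the stress response, had 143, 137 and 145 CPM on patterned gelatin, 139, 148 and 139 CPM on unpatterned gelatin and 75.7, 79.8 and 37 CPM on plastic at day 7. The third plastic library was low, and the log2 fold changes were 1.11 (adjusted p = 0.00129) and 1.12 (adjusted p = 0.00193) with it and 0.81 (adjusted p = 9.57e-05) and 0.83 (adjusted p = 0.000101) without it. At day 4 Ndrg1 had 101, 97 and 105 CPM on patterned gelatin, 135, 110 and 126 CPM on unpatterned gelatin and 83.2, 98.6 and 85.7 CPM on plastic, and neither difference passed. Ddit4, an inhibitor of mTORC1, had 16.3, 19.8 and 17.1 CPM on patterned gelatin and 11.4, 12.1 and 15.7 CPM on plastic at day 7 (1.32-fold, adjusted p = 0.0177), lost without patterned library 2 or plastic library 1 or 2 (adjusted p of 0.0613 to 0.0847). Vldlr, a lipoprotein receptor, had 30.7, 34 and 34.6 CPM on patterned gelatin, 26.4, 27.9 and 30.2 CPM on unpatterned gelatin and 22, 19.9 and 24.1 CPM on plastic at day 4. At day 7 Vldlr had 63.3, 58.3 and 57.9 CPM on patterned gelatin, 45.7, 43.9 and 48.9 CPM on unpatterned gelatin and 41.3, 45.3 and 32.1 CPM on plastic. It passed on patterned gelatin on both days (1.5-fold, adjusted p = 0.00679, and 1.48-fold, adjusted p = 0.00298), and the day 4 call was lost without plastic library 2 (adjusted p = 0.053).

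Wsb1, a ubiquitin ligase subunit, was the gene whose 3 unpatterned libraries fell below plastic at day 7, at 115, 102 and 106 CPM, against 120, 116 and 134 CPM, but the difference missed the threshold (log2 fold change -0.22, SE 0.0822, adjusted p = 0.148). The heme and iron genes were not called on either day with all C2C12 libraries in the fit. Hmox1, the heme oxygenase, had 35.8 to 38.5 CPM on gelatin and 36.3 to 38.6 CPM on plastic at day 4. Tfrc, the transferrin receptor, had 508 to 614 CPM on gelatin and 429 to 459 CPM on plastic at day 4, so that the groups did not overlap. In the fit of all C2C12 libraries its log2 fold changes of 0.33 and 0.32 had an SE of 0.143 each (adjusted p = 0.226 and 0.186). When only the groups compared entered the fit, Tfrc was called higher on both gelatins at day 4.

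The pattern itself, patterned against unpatterned gelatin, gave no call among the 41 genes on either day by edgeR. Over all genes the calls were 0.00674% higher and 0.0% lower on patterned gelatin at day 4, and 0.397% and 0.148% at day 7. At an unadjusted p under 0.05 there were 9 members at day 4, 2 higher and 7 lower (22.0%, against 8.63% of all genes), and 3 at day 7, 1 higher and 2 lower (7.32%, against 19.8%). DESeq2 called Angptl4 lower on patterned gelatin at day 4 (log2 fold change -1.14, SE 0.281, adjusted p = 0.015, with 0.38% of genes lower), and at day 7 Vldlr higher (0.36, SE 0.115, adjusted p = 0.048) and Plod2 lower (-0.20, SE 0.0653, adjusted p = 0.0485), with 1.07% of genes higher and 1.09% lower, whereas limma on log2(TPM + 1) called none. For Angptl4 the unpatterned group held the library at 22.4 CPM, and DESeq2 was not run without it. All 3 patterned libraries lay below all 3 unpatterned ones for 13 members at day 4 (11.7% of all genes) and above for 3 (9.65%), with 2 below (6.97%) and 4 above (7.78%) at day 7. Bnip3, with 79.6, 79.9 and 71.8 CPM on patterned and 97.2, 91.9 and 83.7 CPM on unpatterned gelatin, was among the lower ones at day 4 (log2 fold change -0.23, SE 0.0906, adjusted p = 0.458). Without patterned library 1 at day 7, edgeR called 2 members lower on patterned gelatin (4.01% of genes).

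Whether the effect of gelatin differed between the days was tested directly. For patterned gelatin, the difference between the day 7 and day 4 log2 fold changes passed for Car9 (1.47, SE 0.406, adjusted p = 0.0346) and Ndrg1 (0.93, SE 0.255, adjusted p = 0.0327), which were larger at day 7, and for Kdm3a (-0.29, SE 0.0784, adjusted p = 0.0339), which was smaller. These are 2 and 1 of 41 members, beside 6.24% and 5.5% of all genes. For unpatterned gelatin edgeR called 0 members (0.0% of genes in either direction), 4 were under an unadjusted p of 0.05 (9.76%, against 10.3% of all genes), and DESeq2 and limma called none of the 41. Of the 13 members that edgeR called on patterned gelatin at day 7 and not at day 4, Ndrg1 was the one whose difference between the days also passed by edgeR. Each of the 3 calls held in 11 of 20 settings, and DESeq2 called 7 members, 5 larger and 2 smaller at day 7 (6.05% and 6.14% of 22109 genes). These were the same 3 and Ankrd37 (adjusted p = 0.0449), Fam162a (adjusted p = 0.0275), P4ha2 (adjusted p = 0.0497) and Wsb1 (adjusted p = 0.0239), of which Wsb1 was smaller. Leaving out 1 library moved the count of 3 to between 0 and 13, the highest being without patterned library 1 at day 7 (23.3% of genes).

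Differentiation on plastic was accompanied by calls in both directions. From day 0 to day 4 on plastic, 18 members were higher and 11 lower at day 4 (background 30.2% and 27.7% of genes), and the libraries of the 2 days did not overlap for 19 and 12 (36.0% and 33.7% of genes). Bhlhe40 stood at 197 ± 9.46 CPM at day 4 and 49.4 ± 2 CPM at day 0 (SD, n = 3 libraries each; log2 fold change 1.99, adjusted p = 1.8e-10 by edgeR). Tfrc had 448 ± 15.9 CPM at day 4 and 184 ± 23.9 CPM at day 0 (1.28, adjusted p = 3.1e-07), and Egln3 101 ± 3.47 CPM at day 4 and 45.7 ± 0.885 CPM at day 0 (1.14, adjusted p = 3.98e-10). In the other direction, Apln had 0.391 ± 0.0265 CPM at day 4 and 5.05 ± 0.904 CPM at day 0 (-3.71, adjusted p = 2.37e-10), and Angptl4 4.29 ± 0.562 CPM at day 4 and 18.1 ± 2.52 CPM at day 0 (-2.08, adjusted p = 2.61e-06). Hif1a (0.507-fold), Slc2a1 (0.495-fold) and Ddit4 (0.416-fold) were lower at day 4 too. On the deposited TPM scale limma called 8 higher and 12 lower (19.5% and 29.3%, against 18.3% and 35.4% of genes), with the median of all genes 0.207 log2 units lower at day 4.

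From day 4 to day 7 on plastic, 8 members were higher and 2 lower at day 7 (background 6.47% and 8.37%), without overlap for 11 and 5 (17.3% and 21.3% of genes). Epas1 had 5.66 ± 1.37 CPM at day 7 and 1.47 ± 0.262 CPM at day 4 (SD, n = 3 libraries each; log2 fold change 1.93, adjusted p = 9.5e-05 by edgeR), Vldlr 39.5 ± 6.77 CPM at day 7 and 22 ± 2.11 CPM at day 4 (0.85, adjusted p = 0.000102), and Bnip3 69.8 ± 7.04 CPM at day 7 and 49.2 ± 2.98 CPM at day 4 (0.52, adjusted p = 0.00118). Stc2 (-0.51) and Bhlhe41 (-0.32) were lower. In deposited TPM, where the median of all genes sits 0.206 log2 units higher at day 7, limma called 12 higher and 0 lower (29.3% and 0.0%, against 19.0% and 1.6% of genes).

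In primary cells, 12 members were higher and 8 lower at day 4 on patterned gelatin than in day 0 myoblasts (background 20.2% and 22.4%), without overlap for 16 and 10 (26.9% and 27.4% of genes), where the substrate label changed together with the day. Vldlr had 206 ± 30.8 CPM at day 4 and 47.4 ± 12.6 CPM at day 0 (SD, n = 3 libraries each; log2 fold change 2.08, adjusted p = 0.000305 by edgeR), Bhlhe40 71.8 ± 4.04 CPM at day 4 and 19.8 ± 5.59 CPM at day 0 (1.82, adjusted p = 0.000126) and Stc2 50.9 ± 3.96 CPM at day 4 and 18.4 ± 4.77 CPM at day 0 (1.43, adjusted p = 0.0003). Car9 went the other way, with 0.92, 0.475 and 1.19 CPM at day 4 and 2.82, 2.22 and 4.46 CPM at day 0 (-1.90, SE 0.602, adjusted p = 0.0317). Apln likewise had 1.32, 1.62 and 1.71 CPM at day 4 and 10.4, 11 and 3.67 CPM at day 0 (-2.49, SE 0.444, adjusted p = 0.00222). Of the 18 and 12 members higher at day 4 in C2C12 cells on plastic and in primary cells, 11 were the same genes (11 of 18 and 11 of 12), and Apln, Plod2 and Ero1a were lower in both. The shares of all genes higher in both or lower in both were not computed, so this overlap is not read as a trait of the members. Limma on TPM called 7 higher and 9 lower (17.1% and 22.0%, against 15.9% and 23.9% of genes), with the median of all genes 0.109 log2 units lower at day 4. Same-numbered primary libraries deviated together, and with the replicate number as a block 14 members were higher and 12 lower (27.4% and 30.2% of genes). Without primary library 3 on every day 14 were higher and 11 lower (28.4% and 28.2% of genes), and without primary library 2 at day 4 the counts fell to 8 and 4 (16.2% and 17.1%). Between days 4 and 7 edgeR called 0 members (0.0% of genes in either direction), with 3 under an unadjusted p of 0.05 (7.32%, against 4.64% of all genes), and DESeq2 and limma called none of the 41. The libraries of days 4 and 7 did not overlap for 3 higher and 1 lower member (5.21% and 5.41% of genes).

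Primary cells were set against C2C12 cells of the same day. In myoblasts at day 0, 23 of the 41 were higher and 8 lower in primary cells (background 29.6% and 27.9% of 15447 genes), on patterned gelatin 16 were higher and 8 lower at day 4 (background 25.7% and 25.0%), and 12 higher and 11 lower at day 7 (background 25.0% and 26.4%). At day 7 the shares of members, 29.3% and 26.8%, were near the background. The libraries did not overlap for 22 higher and 11 lower members at day 0 (31.5% and 31.5% of genes), 17 and 9 at day 4 (28.7% and 31.0%) and 11 and 11 at day 7 (24.0% and 26.1%). Cell type, isolation, medium and culture before plating form 1 factor here and cannot be told apart. Without primary library 3 on every day the counts were 26 and 9 at day 0 (31.1% and 29.8% of genes), 18 and 8 at day 4 (27.7% and 25.9%) and 14 and 10 at day 7 (28.3% and 28.0%). Beside these differences, the fibroblast markers noted above were at 39.2 TPM or more in every C2C12 library and at 3.79 TPM or less in every primary library, and their part was not tested.

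In all, 11 genes were higher in primary cells on each of the 3 days. The shares of all genes higher or lower on each day were not computed. Ak4 had 46.5, 47.4 and 44.4 CPM in primary cells and 3.93, 5.21 and 4.64 CPM in C2C12 cells at day 0 (log2 fold change 3.32, adjusted p = 8.54e-13). On patterned gelatin Ak4 had 79.1, 54.9 and 95.2 CPM in primary cells and 15.6, 15.3 and 11.6 CPM in C2C12 cells at day 7 (5.37-fold, adjusted p = 1.65e-10). The primary libraries of both days lay above every C2C12 library in Ak4. Bnip3 showed the same with 212, 223 and 201 CPM in primary cells and 30.9, 31.6 and 35.6 CPM in C2C12 cells at day 0 (6.48-fold, adjusted p = 5.6e-13), and 2.68-fold at day 7 (adjusted p = 3.3e-08). Pdk1 was 5.65-fold higher in primary cells at day 0, 3.55-fold at day 4 and 3.23-fold at day 7. Vldlr reached 297, 394 and 226 CPM in primary cells at day 7, against 63.3, 58.3 and 57.9 CPM in C2C12 cells (5.11-fold, adjusted p = 1.52e-10). The other 7 were Egln1, Pfkfb3, Higd1a, Stc2, P4ha1, Kdm3a and Hmox1, from 1.13-fold for Kdm3a at day 7 to 4.42-fold for Pfkfb3 at day 0.

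Car9, Car12, Apln and Plod2 were higher in primary cells at day 0 and lower at day 7 on patterned gelatin, a set of 4 genes. How many of all genes did the same was not computed. Car9 had 2.82, 2.22 and 4.46 CPM in primary cells and 0.416, 0.749 and 0.591 CPM in C2C12 cells at day 0 (5.32-fold, adjusted p = 1.19e-05). At day 7 it had 0.921, 0.166 and 1.06 CPM in primary cells on patterned gelatin, against 22.8, 18.1 and 16.7 CPM in C2C12 cells on the same substrate (0.0391-fold, adjusted p = 7.1e-10). C2C12 cells on plastic had 0.53 to 0.738 CPM of Car9 at day 7, with 1 primary library below and 2 above that range. Apln had 1.38, 0.996 and 1.68 CPM in primary cells and 6.22, 7.5 and 6.86 CPM in C2C12 cells at day 7 (0.20-fold, adjusted p = 1.3e-06). Plod1, Bhlhe40, Bhlhe41 and Ndrg1 were lower in primary cells on each day, Ndrg1 by most at day 7, with 16, 15.8 and 39.7 CPM, against 143, 137 and 145 CPM (0.169-fold, adjusted p = 1.08e-06).

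**Figure D5:**
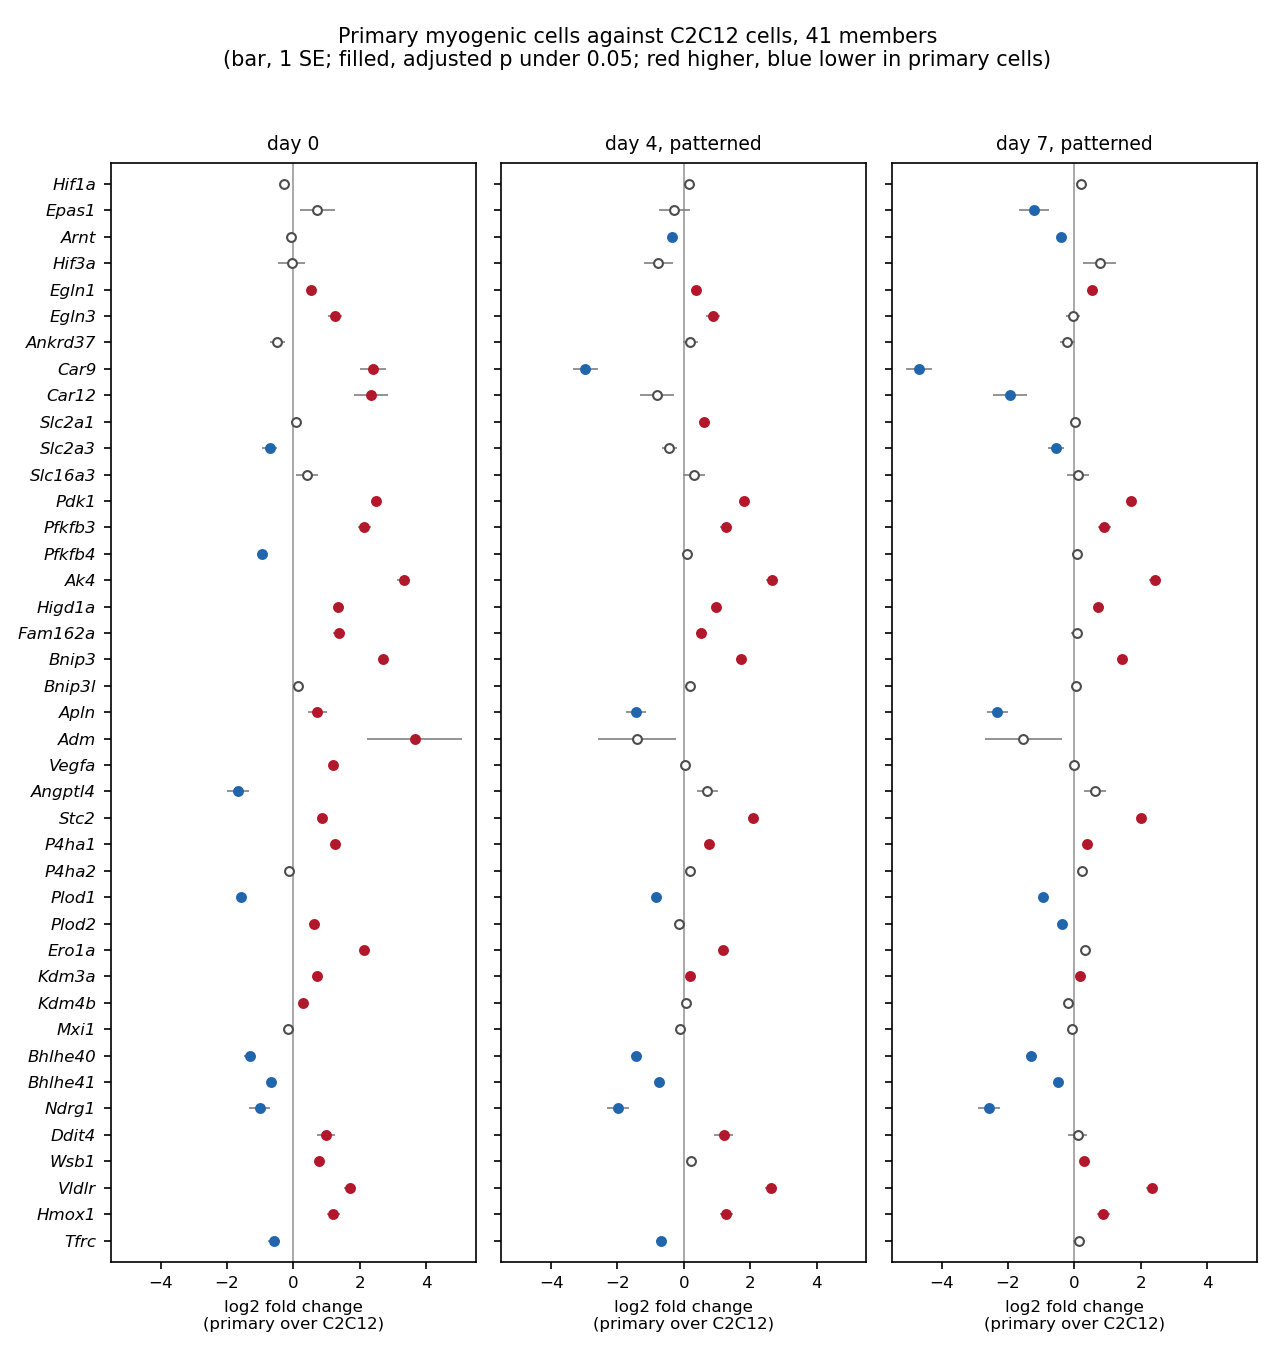
Log2 fold change of 41 hypoxia-inducible genes, primary over C2C12, for day 0 myoblasts and for myotubes of days 4 and 7 on patterned gelatin (points, edgeR estimate; bars, 1 SE; 3 libraries a group; red higher and blue lower at adjusted p under 0.05). Ak4, Pdk1, Bnip3 and Vldlr stay right of 0 on each day, and Car9 lies at 2.41 at day 0 and -4.68 at day 7.

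Related gene lists, chosen with earlier results of these data known, behaved unevenly. Their counts stand beside the shares of all genes called on patterned and unpatterned gelatin. These shares were 2.1% and 4.02% higher and 1.46% and 3.87% lower at day 4. At day 7 they were 12.9% and 2.49% higher and 10.9% and 0.977% lower. Among 20 other genes of the HIF machinery, calls were confined to day 7, where 4 were higher and 1 lower on patterned gelatin and 1 was lower on unpatterned gelatin. Egln2, the remaining HIF hydroxylase, had 47.9, 48.2 and 73.5 CPM on patterned gelatin and 38, 36.2 and 38.3 CPM on plastic at day 7 (log2 fold change 0.57, adjusted p = 0.0115). Of 31 tested of 32 other hypoxia targets, 6 were higher and 1 lower on patterned gelatin and 10 higher on unpatterned gelatin at day 4, and 10 and 8 were higher at day 7. Loxl2, a lysyl oxidase of the matrix, passed in all 4 comparisons, with 14.5, 16.9 and 14.2 CPM on patterned gelatin, 18.2, 16.8 and 17.4 CPM on unpatterned gelatin and 6.48, 7.86 and 10.7 CPM on plastic at day 7. Igfbp3, a binding protein of insulin-like growth factors, was higher on both gelatins at day 7 (log2 fold changes 1.09 and 1.02, adjusted p = 0.00167 and 0.00387).

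The 19 glycolytic enzymes left out of the set showed 1 and 3 higher at day 4 and 13 and 3 at day 7 on patterned and unpatterned gelatin, with none lower. For this and the following lists, the shares of all genes higher were 2.1% and 4.02% at day 4 and 12.9% and 2.49% at day 7. The shares lower were 1.46% and 3.87% at day 4 and 10.9% and 0.977% at day 7. Pgk1 passed in all 4 comparisons, with log2 fold changes of 0.34 to 0.42. Of 42 tested of 44 paralogs of the members, 3 and 4 were higher at day 4 and 12 and 2 at day 7, while 0 and 2 were lower at day 4 and 2 and 1 at day 7. Car3, the muscle carbonic anhydrase, had 347, 462 and 364 CPM on patterned gelatin, 221, 211 and 219 CPM on unpatterned gelatin and 161, 165 and 245 CPM on plastic at day 7 (patterned 1.01, adjusted p = 0.000176). Of 20 genes of the ATF4 and unfolded protein responses, 1 and 3 were higher at day 4 and 8 and 1 at day 7, while 0 and 1 were lower at day 4 and 1 and 0 at day 7. Vldlr is a member of that list as well, and Hspa5, the chaperone of the endoplasmic reticulum, had a log2 fold change of 0.42 on patterned gelatin at day 7 (adjusted p = 0.0101). Of 12 NRF2 targets, 10 iron genes tested of 11 and 15 clock genes, between 0 and 2 passed in either direction in each of the 4 comparisons. No test of a list as a whole was made.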

How the data were processed

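RNA was extracted with Trizol, made into NEBNext libraries and sequenced in pairs on a NextSeq 500. The deposited files hold, per transcript, estimated counts and transcripts-per-million (TPM) that the authors obtained with kallisto against mouse mm10. The version of kallisto, its annotation and any strand setting are details not given in the sources used. Of 88198 transcripts, 86031 were matched to GENCODE M21 and summed to 30205 genes, and the 2167 others took 0.723% to 0.893% of the counts. Sums of the deposited estimated counts were rounded and tested in R 4.3.3 by the quasi-likelihood F test of edgeR 4.0.16, after filterByExpr and TMM scaling, with Benjamini-Hochberg adjustment over all genes tested and a threshold of 0.05. All 21 C2C12 libraries shared 1 fit, the 9 primary libraries another, and all 30 a separate one for primary against C2C12 cells. SE is the size of the log2 fold change divided by the root of F.

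CPM use the TMM factors of the fit of all 30 libraries. Alternatives were DESeq2 1.42.0, DESeq2-type size factors, an offset for effective length, limma 3.58.1 on log2(TPM + 1) of the deposited TPM, no filter on low counts, only the groups compared, a replicate block and leaving out each library. The tests were also checked on simulated data. Tables were handled in Python 3.11.15 (numpy 2.4.6, pandas 2.3.3). The 41 genes, the other lists and the tests were chosen with earlier results of these data known. Per-library values are given for members called in at least 1 of the 4 comparisons of gelatin with plastic and for the HIF subunits, and of the other lists at most 4 genes each, those with the smallest p on patterned gelatin at day 7, could be named. Same-numbered primary libraries deviated together (9 pairs, r of 0.206 to 0.778), whereas same-numbered C2C12 libraries did not (63 pairs, r of -0.187 to 0.223). The main fits held no block for these numbers. The primary calls and adjusted p-values of the main fits therefore leave out that pairing, and the block was run as an alternative. Labels put day 0 primary cells on plastic, whereas the methods describe a coated dish.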

Additional observations from a re-analysis of the deposited data

Results flagged for a closer look

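Among the tests of whether the effect of patterned gelatin over plastic differed between days 7 and 4, 3 members passed edgeR's quasi-likelihood test with Benjamini-Hochberg adjustment. Car9 had a difference of 1.47 on the log2 scale (SE 0.406, adjusted p = 0.0346), with all 3 patterned libraries above plastic on both days. On unpatterned gelatin the same difference was 0.63 (adjusted p = 0.576). Kdm3a had a difference of -0.29 (SE 0.0784, adjusted p = 0.0339), against -0.13 on unpatterned gelatin (adjusted p = 0.559). Ndrg1 had a difference of 0.93 (SE 0.255, adjusted p = 0.0327), against 0.66 on unpatterned gelatin (adjusted p = 0.46). Without plastic library 3 at day 7, which had 37 CPM of Ndrg1 where the other two had 75.7 and 79.8 CPM, the Ndrg1 difference was 0.62 (adjusted p = 0.0335). Whether patterned and unpatterned gelatin differed in these day effects was not tested.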

How the results depend on the processing

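Values under the alternatives were counted for members called in the 4 gelatin comparisons or in the difference between days on patterned gelatin. Of these values, 669 kept their direction and their side of the threshold, 142 kept their direction but no longer passed, and 0 changed sign. Members without a call were not counted, and the alternatives reuse most or all of the same libraries. When the fit held the compared groups alone, 17 members were called on patterned gelatin at day 4 in place of 9, 4 on patterned gelatin at day 7 in place of 20, 6 on unpatterned gelatin at day 7 in place of 14, and 0 in the difference between days on patterned gelatin in place of 3. Limma on log2(TPM + 1), whose pseudocount shrinks the change of low genes, called 13 on patterned gelatin at day 7. DESeq2 called 1 and 2 members between patterned and unpatterned gelatin at days 4 and 7, where edgeR called 0, and 7 in the difference between days on patterned gelatin. An offset for effective length left 1 in that difference, where 494 of 14844 genes were higher and 404 lower. The cause of these shifts was not tested.

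Leaving out 1 library at a time gave 5 to 8 calls on patterned and 10 to 13 on unpatterned gelatin at day 4, and 16 to 22 and 12 to 15 at day 7. Between patterned and unpatterned gelatin it gave 0 to 0 and 0 to 2 calls, the 2 without patterned library 1 at day 7. The difference between days gave 0 to 13 on patterned and 0 to 0 on unpatterned gelatin. On plastic it gave 26 to 29 calls from day 0 to day 4 and 8 to 11 from day 4 to day 7. In primary cells it gave 12 to 16, the 12 without library 2 at day 4, and 0 to 0. Primary against C2C12 cells gave 29 to 30, 23 to 26 and 20 to 23 calls at days 0, 4 and 7. Calls over all genes moved as well. The share higher on patterned gelatin went from 2.1% to 0.578% at day 4 without plastic library 2. At day 7 that share went from 12.9% to 5.42% without patterned library 3. For most of these fits the share of all genes is not given here.

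With the replicate number as a block, the counts on patterned and unpatterned gelatin were 9 and 14 at day 4 and 22 and 13 at day 7, and 4 in the difference between days on patterned gelatin. Of 14844 genes, the block called 302 and 592 higher and 228 and 592 lower at day 4. At day 7 it called 1961 and 347 higher and 1760 and 152 lower. In the difference between days it called 1060 higher and 1079 lower. In primary cells, where same-numbered libraries deviated together, 26 members were called from day 0 to day 4 in place of 20. These were 14 higher and 12 lower, beside 27.4% and 30.2% of genes. Members at low counts, such as Hif3a, Car12 and Adm, limit what depth can show. Leaving out primary library 3 on every day was chosen after seeing the data.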

Other observations

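Nos2, the inducible nitric oxide synthase, is a known HIF target outside the 41 genes. It had 60, 36 and 69 counts on patterned gelatin, 67, 32 and 33 counts on unpatterned gelatin and 0, 0 and 0 counts on plastic at day 4. Against a floor of 3 counts over the plastic group, this was at least 67.4-fold higher on patterned and at least 60.9-fold higher on unpatterned gelatin. At day 7 Nos2 had 122, 75 and 37 counts on patterned gelatin, 168, 69 and 110 counts on unpatterned gelatin and 1, 0 and 0 counts on plastic. C2C12 myoblasts at day 0 had 1, 2 and 0 counts.

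Ppp1r3b, a glycogen-targeting subunit of protein phosphatase 1, had 2.94, 3.29 and 2.26 CPM on patterned gelatin, 3.13, 2.42 and 2.21 CPM on unpatterned gelatin and 1.21, 1.14 and 1.19 CPM on plastic at day 7. Both differences passed by edgeR (log2 fold change 1.24, adjusted p = 0.00231, and 1.11, adjusted p = 0.00915). Slc16a1, a lactate transporter related to Slc16a3, had 126, 147 and 134 CPM on patterned gelatin, 134, 138 and 133 CPM on unpatterned gelatin and 114, 109 and 102 CPM on plastic at day 7. It passed in all 4 comparisons with plastic by edgeR, with log2 fold changes of 0.29 to 0.38. Nqo1, an NRF2 target, was lower on patterned gelatin at day 7, with 2.77, 2.87 and 1.88 CPM, against 3.15, 3.58 and 5.07 CPM on plastic (log2 fold change -0.66, adjusted p = 0.0145 by edgeR).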
